A study of Homo sapiens with 18 samples.

Results

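SKMel28 cells, a human melanoma cell line, were compared after forced expression of the transcription factor MAFG or of green fluorescent protein (GFP). The comparison rests on 6 of the 18 RNA-seq libraries of the series, 3 with MAFG and 3 with GFP, chosen by the line and the vector named in their labels. The other 12 libraries hold the same pair of conditions in the melanoma cell lines WM164 and A375, with 6 libraries each. Both conditions were made with a lentiviral vector in which the EF1α promoter drove either GFP or MAFG with a Myc-DDK tag, and transduced cells were selected with blasticidin. The control cells thus carried the same kind of vector and selection. The sources used here do not say that the 3 libraries of a condition came from separate cultures, so that p-values measure the spread between libraries, which may be technical.

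MAFG is a small MAF protein, a leucine zipper factor that binds DNA but has no transactivation domain of its own. Pairs of small MAF proteins with each other repress, while pairs with the cap'n'collar factors, such as NRF2, activate genes with antioxidant response elements, and pairs with BACH1 or BACH2 repress them. Melanoma cells move between a melanocytic state, in which MITF drives pigment genes, and neural crest-like or mesenchymal-like states with markers such as NGFR and AXL.

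The libraries held between 20122172 and 31797830 counts. The defining melanoma markers MITF, SOX10, PMEL, MLANA, TYR and S100B were all expressed, which fits the labelled cell type. KRT1, KRT5, COL1A2, COL3A1, PTPRC and CD3E, some of the markers of keratinocytes, fibroblasts and leukocytes, had 0 counts in all 6 libraries. Other markers of these cell types had counts in every library. The keratinocyte marker KRT10 had 471 to 853 counts, the fibroblast marker LUM 244 to 633 and the leukocyte marker CD68 6157 to 11363. Libraries of a condition correlated at 0.980 to 0.986 (Pearson, log CPM across genes) and libraries of different conditions at 0.962 to 0.969. In the MAFG libraries, mitochondrial genes took 27.3% to 29.1% of all counts, against 23.7% to 25.4% in the GFP libraries, and their part in the results below was not tested. CPM values here divide the counts by the library size after edgeR's TMM normalization over the 6 libraries. They are not corrected for gene length, so they compare a gene between libraries and not one gene with another.

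MAFG itself was higher in every MAFG library. It was at 23.0 ± 3.23 CPM with GFP and 35.7 ± 1.52 CPM with MAFG (SD, n = 3 libraries), which is 0.64 on the log2 scale with a standard error of 0.10 (adjusted p = 1.28e-04 in edgeR's quasi-likelihood test). MAFG lies on chromosome 17 and shares exon sequence with SIRT7 on the same strand, and reads in such an overlap may be counted for neither gene.

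More genes were lower than higher with MAFG beyond a 2-fold change. Of 15523 genes tested with edgeR's quasi-likelihood test, 463 (2.98%) were lower and 273 (1.76%) were higher when both a Benjamini-Hochberg adjusted p up to 0.05 and a change beyond 2-fold were required, and these are the genes termed called below. Without the fold limit, 2375 genes (15.3%) fell and 2265 (14.6%) rose, a nearly even split. Lower genes thus made up 62.9% of the called genes. With the deposited TPM values, on a log2 scale after adding 1 or 0.1, this share was 80.5% and 78.6%, where the median of all genes was shifted by -0.14 and -0.17 and the called genes numbered 226 and 411. In these bulk libraries, less RNA per cell and fewer cells that express a gene cannot be told apart.

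**Figure D1:**
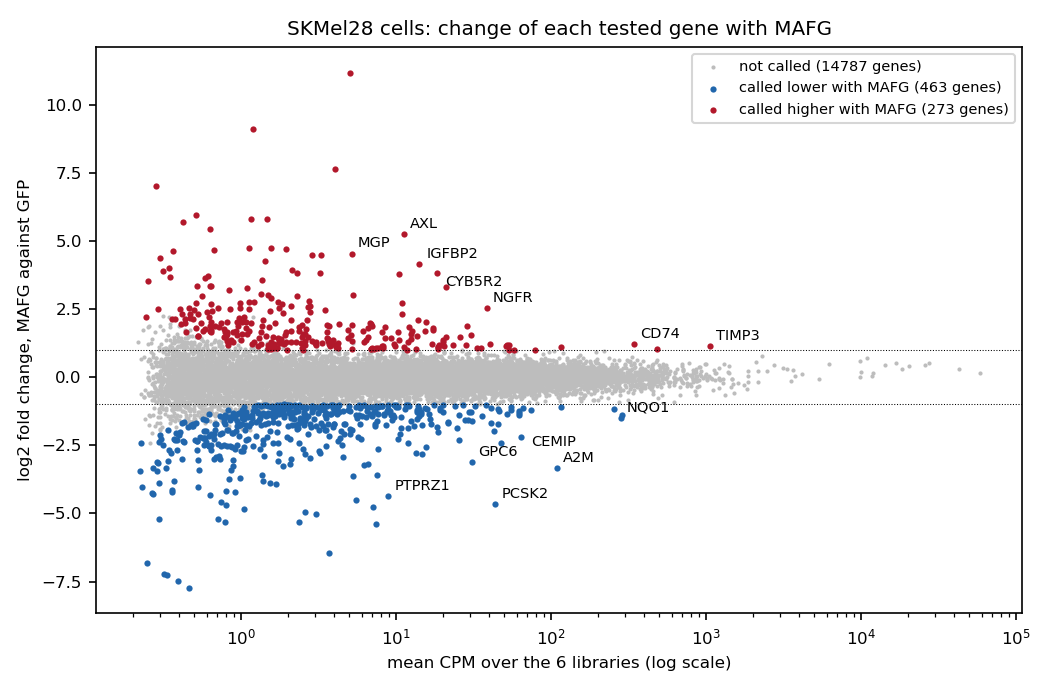
The log2 fold change of MAFG against GFP libraries (vertical axis) is plotted against the mean CPM over the 6 libraries (horizontal log axis) for each of 15523 tested genes, with 273 genes called higher in red and 463 called lower in blue. Dotted lines mark the 2-fold limit, and for genes near 0 in one condition the plotted fold change depends on the fit.

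The lower genes had a median log2 fold change of -1.66 and the higher genes one of 1.69, and the fold change exceeded 4-fold in 159 lower and 97 higher genes. Protein-coding genes made up 374 of the lower and 232 of the higher genes, while 27 and 16 were long intergenic non-coding RNAs. The 2 conditions were fully separated for 459 of the 463 lower and 267 of the 273 higher genes, against 43.0% of all tested genes. The rule for a call itself favours such separation, so that it is no separate evidence. Most called genes had low counts, with a median level in the higher condition of 3.14 CPM for lower and 3.05 CPM for higher genes. In 24 lower and 16 higher genes, one condition had at most 3 counts in each library, so that only a bound on the fold change can be given. When each library was left out in turn, 282 of the lower and 186 of the higher genes remained called in all 6 fits.

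Among the genes named by their smallest adjusted p, 18 have an entry in the RefSeq promoter sequences (250 bases before to 50 bases after the start, GRCh38.p14). Their promoters were searched on both strands for motifs of the factors that MAFG is known to work with or that define melanocytes. These were TGANTCA, TGACNNNGC (the core of an antioxidant response element), CACGTG (the E-box of MITF) and CATGTG (its variant). TGANTCA is looser than the AP-1 type core of a MAF element, since any base may stand at its N. One stretch can match both TGANTCA and TGACNNNGC, while the E-box and its variant cannot match the same bases. A single window was used for each of the 18 genes, and any other start of these genes was not searched. The sequences of the 5 promoters with a match are shown, with the match in capitals. A reader can thus see what lies at the start that was used. CYB5R2 and BAAT are genes that rose, and GPC6, SLC7A8 and MET are genes that fell. The windows of SLC7A8, CYB5R2 and BAAT lie inside the gene, whose upstream end is at 23183674, 7677222 and 101385400. Those of GPC6 and MET span the upstream end of the gene, at 93226807 and 116672196. They lie at chr11:7673451-7673750 (CYB5R2, minus strand), chr9:101383824-101384123 (BAAT, minus strand), chr13:93226557-93226856 (GPC6, plus strand), chr14:23155271-23155570 (SLC7A8, minus strand) and chr7:116671946-116672245 (MET, plus strand).
CYB5R2: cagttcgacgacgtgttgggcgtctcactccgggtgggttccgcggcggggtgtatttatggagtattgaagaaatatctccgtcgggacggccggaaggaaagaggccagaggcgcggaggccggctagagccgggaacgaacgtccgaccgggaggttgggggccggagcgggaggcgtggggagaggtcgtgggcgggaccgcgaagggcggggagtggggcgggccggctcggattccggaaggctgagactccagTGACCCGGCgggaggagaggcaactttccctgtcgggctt
BAAT: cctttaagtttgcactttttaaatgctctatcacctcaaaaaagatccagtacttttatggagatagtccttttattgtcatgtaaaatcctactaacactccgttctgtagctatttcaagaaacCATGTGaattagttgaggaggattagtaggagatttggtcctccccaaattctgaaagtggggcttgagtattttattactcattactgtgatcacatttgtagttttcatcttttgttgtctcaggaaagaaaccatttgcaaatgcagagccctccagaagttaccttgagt
GPC6: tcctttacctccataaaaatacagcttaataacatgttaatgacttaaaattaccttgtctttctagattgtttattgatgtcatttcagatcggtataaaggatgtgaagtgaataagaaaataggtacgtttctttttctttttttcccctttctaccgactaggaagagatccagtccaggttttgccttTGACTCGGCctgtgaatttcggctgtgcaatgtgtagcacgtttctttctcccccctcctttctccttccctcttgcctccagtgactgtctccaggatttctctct
SLC7A8: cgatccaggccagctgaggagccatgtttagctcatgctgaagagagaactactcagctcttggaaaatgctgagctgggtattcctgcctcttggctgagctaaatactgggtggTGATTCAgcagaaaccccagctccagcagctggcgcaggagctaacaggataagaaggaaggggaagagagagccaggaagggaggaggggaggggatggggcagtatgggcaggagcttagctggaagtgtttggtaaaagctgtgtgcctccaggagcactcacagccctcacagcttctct
MET: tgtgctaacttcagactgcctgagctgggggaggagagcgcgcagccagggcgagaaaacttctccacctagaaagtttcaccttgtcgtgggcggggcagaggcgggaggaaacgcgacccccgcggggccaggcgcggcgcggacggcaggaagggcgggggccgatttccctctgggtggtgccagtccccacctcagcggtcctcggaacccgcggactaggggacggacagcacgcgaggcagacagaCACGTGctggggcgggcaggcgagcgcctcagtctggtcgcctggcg

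Relative to the start used for each gene, the antioxidant response element core began at position 11 in CYB5R2 and at -57 in GPC6. It thus stood in a window of a gene that rose and of one that fell. The CATGTG match of BAAT began at -124, the TGANTCA match of SLC7A8 (which reads TGATTCA) at -134 and the CACGTG match of MET at 4. The windows of the other 13 genes held none of these letters, among them those of PCSK2, NQO1, AXL and IGFBP2. Since other starts were not searched, this does not cover every promoter of these genes. Over all 27305 promoters, 7.76% held TGANTCA, 13.6% TGACNNNGC, 7.43% CACGTG and 11.2% CATGTG. Among the promoters of 10414 tested genes, the shares were 4.40%, 14.95%, 10.3% and 6.73%. Among 302 promoters of lower genes they were 6.29%, 9.27%, 12.3% and 4.97%, and among 177 promoters of higher genes 5.65%, 14.7%, 6.21% and 10.2%. These shares are a description of letters in a window, and whether any factor binds there was not measured.

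The lower genes with the smallest adjusted p are described first. These and the higher genes below were chosen among called genes whose libraries do not overlap between conditions. Their lack of overlap was therefore fixed by that choice. PCSK2 (chromosome 20 from 17226107 to 17484578, GRCh38), a convertase that cleaves prohormones in secretory granules, had 83.8, 84.6 and 84.2 CPM in the GFP libraries and 3.67, 3.35 and 3.01 CPM in the MAFG libraries. The conditions were far apart and the libraries of each were nearly alike. Its log2 fold change was -4.65 (standard error 0.09, adjusted p = 7.11e-15 in edgeR's quasi-likelihood test), which is 25.1-fold lower.

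A2M (chromosome 12 from 9067664 to 9116229), the broad plasma protease inhibitor alpha-2-macroglobulin, was at 204, 195 and 199 CPM with GFP and at 22.2, 18.5 and 17.8 CPM with MAFG. Each MAFG library lay about an order of magnitude under each GFP library, and the log2 fold change was -3.35 (standard error 0.08, edgeR adjusted p = 9.56e-14). CST1, the cysteine protease inhibitor cystatin SN, fell from 79.6, 73.9 and 86.5 CPM to 14.1, 16.7 and 14.03 CPM (log2 fold change -2.42). Both inhibitors thus fell without overlap.

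GPC6, a glypican that carries heparan sulfate on the cell surface, was at 55.2, 55.3 and 55.0 CPM with GFP and at 5.72, 6.84 and 6.39 CPM with MAFG (log2 fold change -3.13, standard error 0.09, edgeR adjusted p = 1.34e-12). CEMIP, which takes part in the breakdown of hyaluronan, went from 104, 106 and 104 to 24.0, 19.99 and 24.0 CPM (log2 fold change -2.21). CEMIP overlaps an exon of MESD on the opposite strand and is uncertain, as it is unclear whether reads were counted by strand.

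PTPRZ1 (chromosome 7 from 121873089 to 122062036), a receptor phosphatase that binds the growth factor pleiotrophin, had 18.1, 15.99 and 16.7 CPM with GFP and 0.798, 0.753 and 0.933 CPM with MAFG. It was 20.4-fold lower (log2 fold change -4.35, standard error 0.17, edgeR adjusted p = 4.22e-11). PTPRU, another receptor phosphatase, went from 40.7, 44.5 and 41.5 to 7.63, 8.62 and 9.19 CPM (log2 fold change -2.32). No MAFG library of either gene reached the level of a GFP library. Of 14 receptor-type phosphatases tested, 5 were called lower (PTPRZ1, PTPRU, PTPRH, PTPRB and PTPRR) and PTPRD was called higher, and their median log2 fold change of -0.40 stood beside -0.01 for all tested genes. The 5 lower calls held in each fit without 1 library, while that of PTPRD was lost without GFP library 1 or 2 or MAFG library 2.

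SLC7A11 (chromosome 4 from 138164097 to 138242349), the subunit of the cystine/glutamate exchanger that supplies cysteine for glutathione, was at 67.8, 74.3 and 64.5 CPM with GFP and at 18.2, 17.1 and 16.5 CPM with MAFG (log2 fold change -1.99, standard error 0.08, edgeR adjusted p = 5.01e-11). SLC7A8, a carrier of neutral amino acids, was at 426, 399 and 417 CPM with GFP and at 152, 161 and 160 CPM with MAFG (log2 fold change -1.39). NQO1 (chromosome 16 from 69706996 to 69726668), a quinone reductase that is a standard readout of NRF2, was at 412, 401 and 430 CPM with GFP and at 146, 162 and 137 CPM with MAFG (log2 fold change -1.48, standard error 0.07, edgeR adjusted p = 1.84e-10). All 3 genes were lower in every MAFG library.

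MET (chromosome 7 from 116672196 to 116798377), the receptor of hepatocyte growth factor, was at 64.2, 61.3 and 62.2 CPM with GFP and at 19.4, 20.1 and 19.3 CPM with MAFG (log2 fold change -1.68, standard error 0.07, edgeR adjusted p = 7.54e-11). HTR2B, a serotonin receptor, went from 25.3, 23.2 and 22.2 to 3.35, 3.42 and 3.48 CPM (log2 fold change -2.79), and it overlaps an exon of PSMD1 on the opposite strand. CELSR1, an atypical cadherin of planar cell polarity, went from 69.0, 74.4 and 66.8 to 20.9, 22.6 and 20.9 CPM (log2 fold change -1.71). The 2 conditions did not overlap for any of these receptors.

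MAGEC1, an antigen of testis and tumours, fell from a mean of 26.9 to 4.55 CPM (log2 fold change -2.56), and ARID5B, a chromatin protein, from 90.6 to 34.9 CPM (log2 fold change -1.38). By the size of the difference in CPM, the ubiquitin ligase NEDD4L (log2 fold change -1.15), KIAA1549L (-1.09) and ANKRD30B (-1.20) also stood among the 10 largest falls, with means of 351, 158 and 103 CPM with GFP.

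**Figure D2:**
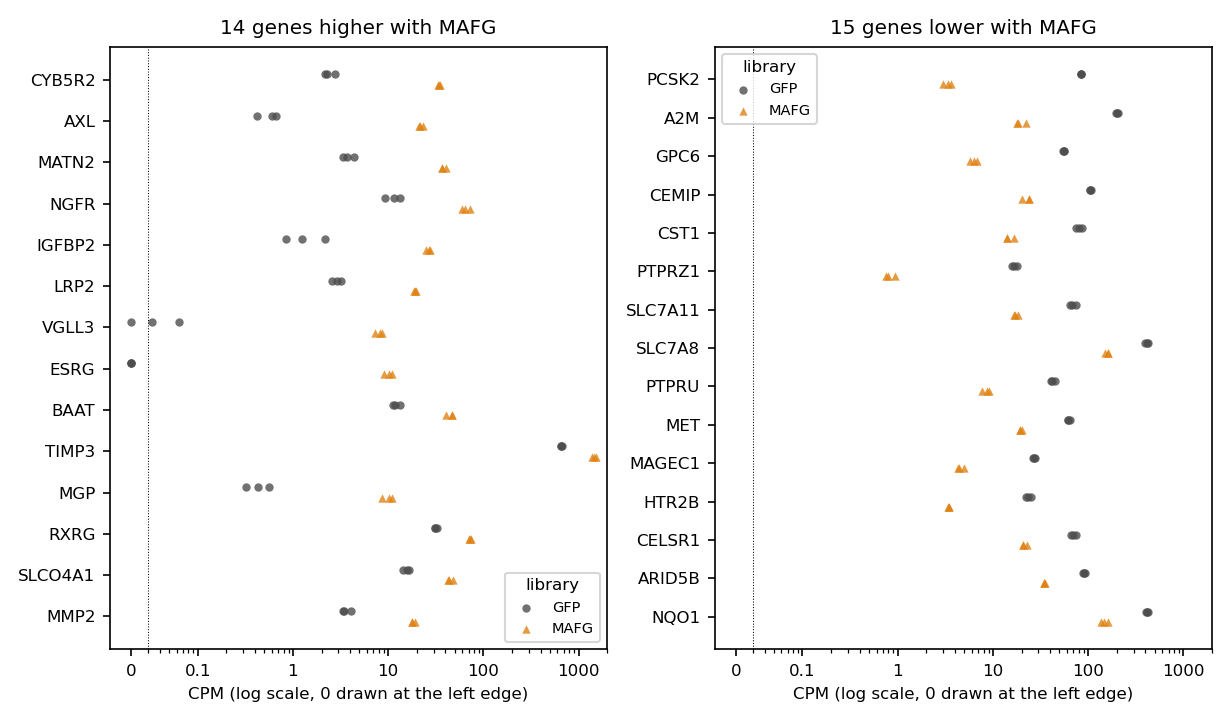
CPM on a log axis in each of the 3 GFP libraries (grey circles) and 3 MAFG libraries (orange triangles) is shown for higher and lower called genes among those with the smallest adjusted p. The genes were chosen among those whose libraries do not overlap between the 2 conditions, and ESRG is at 0 in the 3 GFP libraries.

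The higher genes with the smallest adjusted p follow. CYB5R2 (chromosome 11 from 7665100 to 7677222), a cytochrome b5 reductase, had 2.20, 2.29 and 2.78 CPM with GFP and 33.1, 34.6 and 34.9 CPM with MAFG. It was 14.1-fold higher (log2 fold change 3.81, standard error 0.12, edgeR adjusted p = 2.55e-12). AXL (chromosome 19 from 41219223 to 41261766), a receptor tyrosine kinase that marks dedifferentiated melanoma cells, rose from 0.605, 0.421 and 0.662 CPM to 21.2, 21.5 and 23.4 CPM (log2 fold change 5.25, standard error 0.17, edgeR adjusted p = 5.28e-12). For both genes every MAFG library was far above every GFP library, and AXL had under 1 CPM in each GFP library.

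MATN2, the matrix protein matrilin 2, rose from 4.33, 3.32 and 3.67 to 37.2, 40.3 and 36.6 CPM (log2 fold change 3.32). IGFBP2, a binding protein of insulin-like growth factors, rose from 2.20, 0.842 and 1.26 to 27.1, 27.4 and 25.1 CPM (log2 fold change 4.16, standard error 0.20). MGP, an inhibitor of calcification, rose from 0.318, 0.561 and 0.430 to 8.59, 10.2 and 11.02 CPM (log2 fold change 4.53), and it overlaps an exon of C12orf60 on the opposite strand. In each of the 3 genes, the lowest MAFG library was above the highest GFP library.

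NGFR (chromosome 17 from 49495293 to 49515008), the p75 neurotrophin receptor and a marker of the neural crest-like state, rose from 13.2, 11.4 and 9.24 to 64.4, 60.1 and 72.7 CPM (log2 fold change 2.54, standard error 0.11, edgeR adjusted p = 1.58e-10). Its highest GFP library was far below every MAFG library. RXRG, a retinoid X receptor that is also a neural crest-like marker, rose from a mean of 31.5 to 72.1 CPM (log2 fold change 1.20).

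A pair of genes was near 0 in the control. VGLL3, a cofactor of TEAD transcription factors, had at most 3 counts in each GFP library and a mean of 8.04 CPM with MAFG, at least 57.3-fold higher against a floor of 3 counts per library. ESRG, a non-coding RNA gene, had 0 counts in the GFP libraries and a mean of 10.1 CPM with MAFG, at least 72.0-fold higher. No GFP library of either gene came near a MAFG library.

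TIMP3, an inhibitor of metalloproteases bound to the matrix, rose from 676, 648 and 657 to 1393, 1444 and 1529 CPM (log2 fold change 1.14, standard error 0.06, edgeR adjusted p = 8.63e-10). MMP2, a gelatinase, rose from 3.34, 3.46 and 4.10 to 17.9, 19.3 and 17.8 CPM (log2 fold change 2.33). Both a protease and an inhibitor of proteases were thus higher in each MAFG library, while A2M was lower. Of 33 metalloproteases and inhibitors tested, 3 were called higher (the third was MMP1, log2 fold change 1.05, whose call was lost without GFP library 2) and A2M and ADAM11 were called lower.

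LRP2, the endocytic receptor megalin, rose from a mean of 2.89 to 19.1 CPM (log2 fold change 2.73), BAAT, which joins bile acids to amino acids, from 12.2 to 45.1 CPM (1.88), and SLCO4A1, an organic anion carrier, from 15.5 to 45.0 CPM (1.54). SLCO4A1 overlaps its antisense gene. Among the 10 largest rises in CPM were also the lipid carrier APOD (log2 fold change 1.05), the ligand-activated factor AHR (1.10) and the matricellular protein CCN3 (1.14). SYTL2 and APBB1 were close to the limit, with log2 fold changes of 1.01 each, and lost their calls without GFP library 2, SYTL2 also without MAFG library 2 and APBB1 also without GFP library 3 or MAFG library 1.

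Lists of genes with a known function were then read for how many of their members were called, with 69 lists in all and a called member in 56 of them. FOXD3, THBS2, BOC, IL24, SLC16A3 and MYLK among the called members named below also share exon sequence with a gene on the opposite strand and are uncertain. A list's share is to be read against 2.98% lower and 1.76% higher among all tested genes, and against 15.3% and 14.6% without the fold limit.

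**Figure D3:**
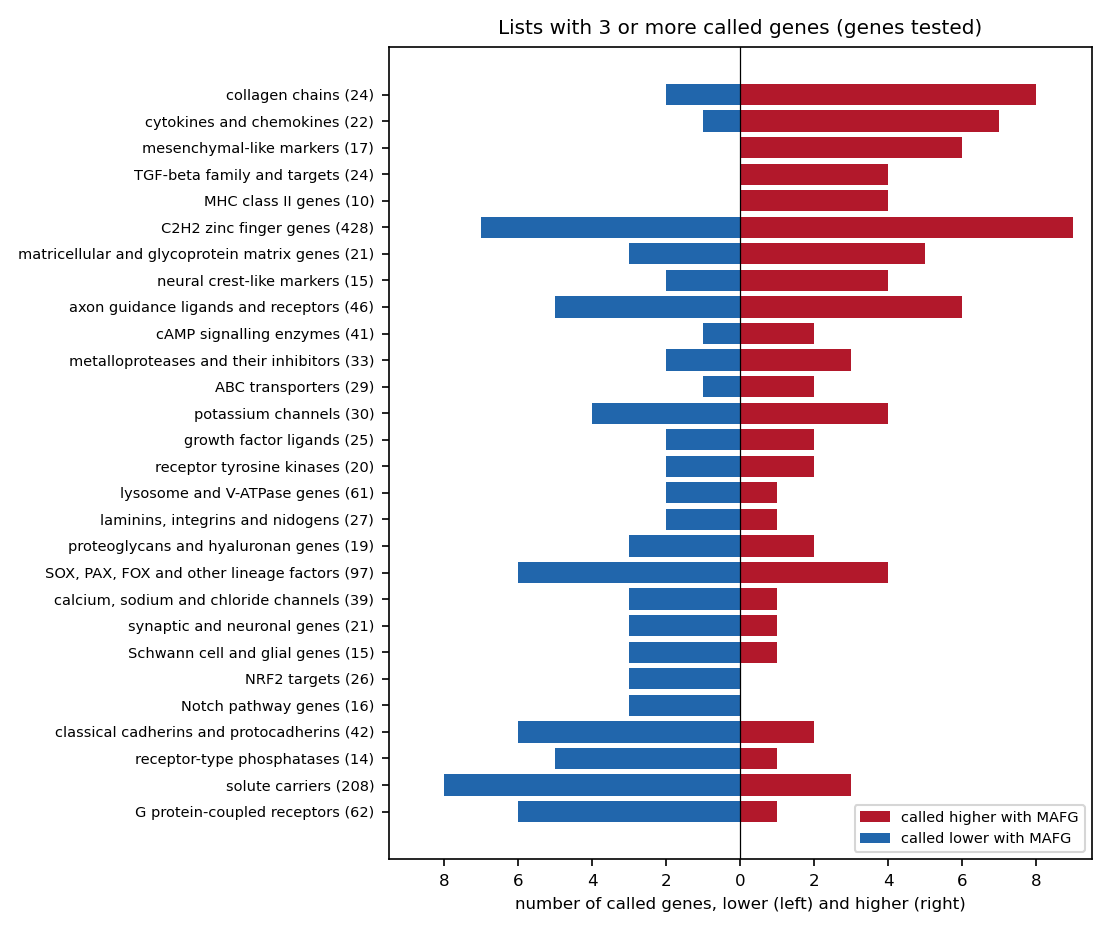
Bars give the number of genes called lower (blue, left) and higher (red, right) with MAFG in lists with 3 or more called genes, with the number of tested genes in parentheses. Collagen chains had 8 higher and 2 lower, and solute carriers 3 higher and 8 lower.

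NRF2 targets, the genes of glutathione, iron storage and quinone detoxification, were mostly lower. Of 26 tested, 15 fell and 4 rose without the fold limit, and 3 were called lower, SLC7A11, NQO1 and AKR1C2, the last of which has near-identical paralogs and lost its call without GFP library 2 or 3 or MAFG library 1 or 2. The median log2 fold change was -0.28. HMOX1, which breaks down heme, fell by 0.68 on the log2 scale (edgeR adjusted p = 2.11e-05) and GCLM, a subunit of the enzyme that starts glutathione synthesis, by 0.56 (edgeR adjusted p = 2.00e-04), while GCLC, its catalytic partner, had a log2 fold change of -0.18 (edgeR adjusted p = 0.138). SRXN1 (0.04) and TXNRD1 (0.07) did not pass the test either. MAFG, itself a known NRF2 target, is one of the 4 genes that rose, but its expression was forced in these cells. Its rise therefore does not describe NRF2 targets.

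Of 6 partners of small MAF proteins tested, 2 rose and 3 fell without the fold limit, and 1 was called lower. NFE2L2, which encodes NRF2, rose (log2 fold change 0.29, edgeR adjusted p = 8.39e-04) and overlaps other genes. NFE2L1 fell (-0.20), BACH1 fell (-0.27), and BACH2 was called lower, from a mean of 4.76 to 1.36 CPM (log2 fold change -1.80, edgeR adjusted p = 5.87e-05). NFE2L3 rose (0.80). KEAP1, which holds NRF2 in the cytoplasm, did not pass the test (-0.03) and was named after its value was seen.

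Melanocytic genes shifted little in size. Of 20 melanocytic markers tested, 11 fell and 3 rose without the fold limit, and the median log2 fold change was -0.20. PMEL, the fibre protein of melanosomes, fell from 1742, 1611 and 1508 to 1058, 1078 and 939 CPM (log2 fold change -0.66, standard error 0.07, edgeR adjusted p = 2.93e-06), and it overlaps CDK2 on the opposite strand. MITF fell from a mean of 619 to 539 CPM (-0.20) and TYR, the enzyme that starts melanin synthesis, from 162 to 138 CPM (-0.23). MLANA (0.04) and SOX10 (0.03) did not pass the test. Both values were below 0 on the TPM scales, where the median of all genes was -0.14 and -0.17. TYRP1, another melanin enzyme, rose (0.33). CDH1, E-cadherin, was the only one called, from 0.984 to 0.0897 CPM (log2 fold change -3.39).

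Of 19 pigment enzymes and melanosome genes, 8 fell and 2 rose without the fold limit, none was called, and the median was -0.10. S100B, a further melanoma marker, rose from a mean of 259 to 387 CPM (log2 fold change 0.58).

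Mesenchymal-like markers were the list with the most one-sided calls. Of 17 tested, 6 were called higher and none lower, and 10 rose and 1 fell without the fold limit, with a median log2 fold change of 0.72. Among them were AXL, COL5A1 (4.75), the crosslinking enzyme LOXL2 (1.79) and the matricellular proteins THBS1 (2.41) and CCN1 (1.87), and all 6 calls held in each fit without 1 library. LOXL2 overlaps ENTPD4 on the same strand and THBS1 overlaps FSIP1 on the opposite strand. FN1, fibronectin, rose below the limit, with a log2 fold change of 0.72 (edgeR adjusted p = 2.81e-07). The exception was CCN2, which fell by 0.81 on the log2 scale and was named after its value was seen.

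Neural crest-like markers were called in both directions. Of 15 tested, 4 were called higher, NGFR, RXRG, NES (log2 fold change 1.64) and PRIMA1 (1.99), and A2M and FOXD3 (-1.05) were called lower. Without the fold limit 8 rose and 2 fell, and the median was 0.47. NES was lost in each of the 6 fits without 1 library, PRIMA1 without GFP library 1 or 3 or MAFG library 1, and FOXD3 without GFP library 1 or MAFG library 3. SOX2 (1.21, edgeR adjusted p = 0.103) and SOX9 (0.92, edgeR adjusted p = 0.351) did not pass the test with means of 1.02 CPM or less in each condition.

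More collagen transcripts were called higher than lower. Of 24 collagen chains tested, 8 were called higher and 2 lower, with a median log2 fold change of 0.46. The basement membrane chains COL4A1 (log2 fold change 3.35) and COL4A2 (2.62), the transmembrane chain COL13A1 (3.84) and COL12A1 (2.04) rose, and COL12A1 went from a mean of 6.08 to 25.0 CPM. The calls of COL6A5 and COL4A5 among the higher, and of COL9A2 and COL18A1, the 2 lower chains, depended on single libraries. COL6A5 was lost without GFP library 1 or 3 or MAFG library 1 or 2, COL4A5 without GFP library 2 or MAFG library 1, COL9A2 without GFP library 1 or MAFG library 1 or 3, and COL18A1 without GFP library 1 or MAFG library 3. COL9A3 and COL18A1 overlap genes on the opposite strand.

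Of 21 matricellular and glycoprotein matrix genes, 5 were called higher, led by MATN2, THBS1, CCN1 and CCN3, and 3 lower (median 0.42). Of these calls, THBS2 was lost without GFP library 2 or 3 or any MAFG library, and LTBP2 without GFP library 1 or MAFG library 2. FBLN5, fibulin 5 of elastic fibres, fell from a mean of 11.2 to 1.21 CPM (log2 fold change -3.21), and FBLN1 had 0 counts with MAFG, at least 4.58-fold lower. Of 19 proteoglycans and hyaluronan genes, ACAN (1.303) and GPC4 (1.69) were called higher and GPC6, CEMIP and SDC1 (-2.22) lower, with a median of -0.18. Of 13 matrix crosslinking and collagen processing enzymes, LOXL2 was the only call. Of 14 serpins and plasminogen activators, 2 were called higher and none lower, among them SERPINA3 (1.71), and 8 rose and 1 fell without the fold limit (median 0.49). Of 27 laminins, integrins and nidogens, ITGA4 (-1.04) and LAMB3 (-1.57) were called lower and NID1 (1.4998) higher, and the call of ITGA4 was lost without MAFG library 1 and that of NID1 in each of the 6 fits without 1 library.

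**Figure D4:**
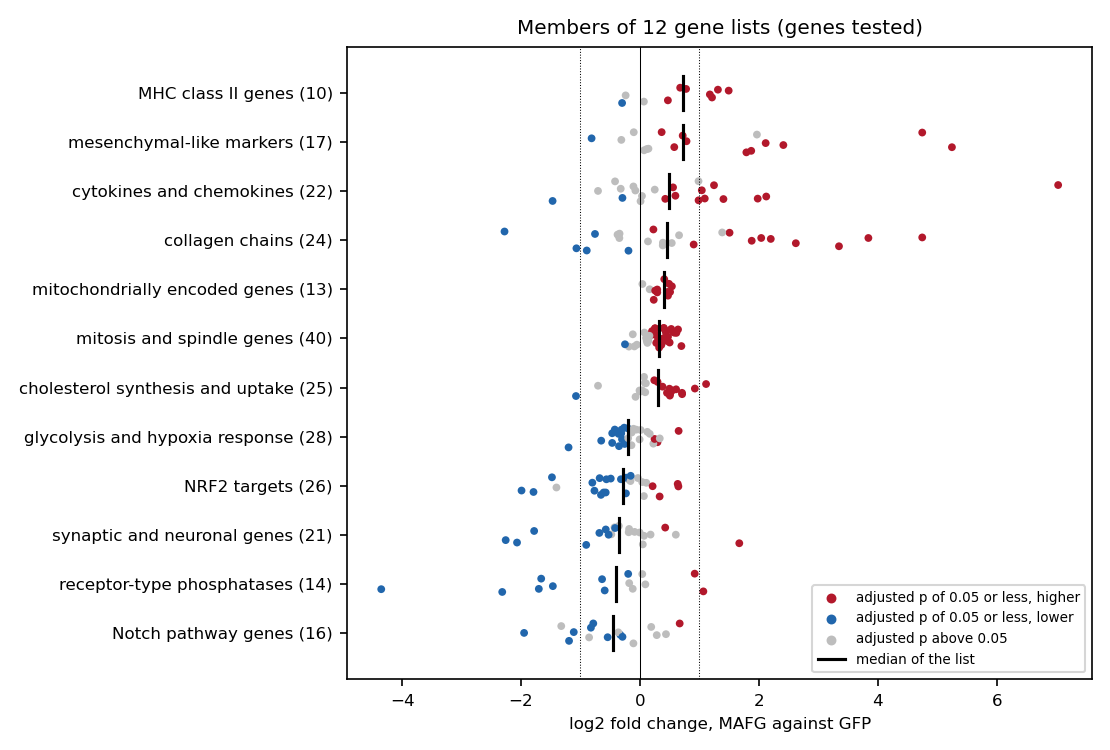
Each point is the log2 fold change of MAFG against GFP of one tested gene in 12 lists (tested genes in parentheses), red or blue where the adjusted p was 0.05 or less, with black bars at the list medians and dotted lines at the 2-fold limit. The medians run from -0.45 for Notch pathway genes to 0.73 for MHC class II genes, and mitosis genes lie close together within the limit.

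Of 42 classical cadherins and protocadherins tested, 6 were called lower, CDH3 (log2 fold change -1.56), CDH19 (-1.45), CDH1, CDH7 (-2.28), CDH18 (-4.22) and PCDHB2 (-1.55), and CDH13 (2.71) and PCDH17 (2.41) were called higher, with a median of -0.33. CDH3, P-cadherin, fell from a mean of 43.9 to 14.9 CPM and overlaps its antisense gene, while PCDHB2 has close paralogs. All 8 calls held in each fit without 1 library. Of 18 immunoglobulin-family adhesion genes, NCAM2 (-3.07) and NFASC (-2.50) were called lower and none higher, while 6 rose and 5 fell without the fold limit and the median was -0.01.

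Neuronal genes were lower on balance. Of 21 synaptic and neuronal genes tested, 3 were called lower, among them the neurofilament NEFL (log2 fold change -1.78) and MAPT (-2.07), and NRXN3 (1.67) was called higher. Without the fold limit 8 fell and 2 rose, and the median was -0.36. The call of MAPT, the protein tau, was lost without GFP library 2 or MAFG library 1 or 3. Of 46 axon guidance genes, 5 were called lower, among them the semaphorin receptors PLXNA2 (-1.72) and PLXNB1 (-1.47), and 6 higher, among them EPHA2 (2.59), EPHA3 (1.52) and PLXND1 (1.23), while 19 fell and 11 rose without the fold limit (median -0.30).

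Schwann cell and glial genes split. Of 15 genes tested, 1 was called higher and 3 lower. EGR2, the factor that drives myelination, fell from a mean of 4.56 to 0.636 CPM (log2 fold change -2.83), and POU3F1, which acts before it, from 5.64 to 0.813 CPM (-2.78). CDH19 was the third gene called lower. The median of the list was 0.06 and fell below 0 on the TPM scales, though not below the median of all genes there.

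Signalling receptors and ligands changed in both directions. Of 20 receptor tyrosine kinases, AXL and NTRK2 (log2 fold change 2.35) were called higher and MET and MERTK (-1.24) lower, and the call of MERTK, a relative of AXL, was lost without MAFG library 3. Of 25 growth factor ligands, FGF2 (1.86) and BDNF (1.98), a ligand of NTRK2 and NGFR, were called higher, though both overlap genes on the opposite strand, and FGF5 (-2.71) and MDK (-1.98) lower, MDK not without GFP library 1 or 2 or MAFG library 1. The median was -0.33. Of 62 G protein-coupled receptors, 6 were called lower and 1 higher, among the lower HTR2B, ADGRG2 (-1.501), S1PR3 (-2.63) and GPR158 (-1.13).

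More Notch pathway genes fell than rose. Of 16 tested, 8 fell and 1 rose without the fold limit, and 3 were called lower, the ligand JAG1 (from a mean of 19.1 to 8.37 CPM, log2 fold change -1.19), HES6 (-1.11) and NOTCH3 (-1.95). The median was -0.45. The call of HES6 was lost without MAFG library 1 and that of NOTCH3 without GFP library 1. NOTCH2, a receptor, fell (-0.33), and NOTCH1 did not pass the test (-0.11).

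Of 24 genes of the TGF-beta family and its targets, 4 were called higher and none lower, among them INHBA (log2 fold change 1.91), which encodes a subunit of activins, FST (3.03), which encodes the activin antagonist follistatin, and PMEPA1 (1.05), whose call was lost without GFP library 1 or MAFG library 3. FST had 0.700, 1.40 and 1.39 CPM with GFP and 10.8, 8.66 and 8.79 CPM with MAFG, and INHBA 1.08, 1.31 and 2.09 CPM with GFP and 5.24, 6.84 and 4.84 CPM with MAFG. Both were higher in each MAFG library. The list median of 0.02 was below 0 on the TPM scales, and also below the median of all genes there. Of 18 YAP and TEAD targets, AXL and CCN1 were called higher and none lower (median 0.19).

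Of 11 Hedgehog pathway genes, the factor GLI2 (2.32) was called higher and the receptor BOC (-1.29) lower. GLI2 had at most 7 counts in a GFP library, and its mean TPM went the other way, from 0.237 with GFP to 0.193 with MAFG. Of 25 WNT genes, the receptor FZD8 (-1.34) was called lower, and of 21 MAPK feedback genes, EPHA2 was the only call. The medians of these 3 lists lay between -0.04 and 0.05. That of Hedgehog genes was below 0 on the TPM scales, though not below the median of all genes there.

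Most MHC class II transcripts were higher. Of 10 tested genes, 4 were called higher, CD74, HLA-DRA, HLA-DRB1 and HLA-DRB5, all 4 also in each fit without 1 library, and 7 rose and 1 fell without the fold limit, with a median log2 fold change of 0.73. CD74, the invariant chain that guides class II molecules, was at 214, 192 and 213 CPM with GFP and at 455, 455 and 525 CPM with MAFG (log2 fold change 1.21, standard error 0.07, edgeR adjusted p = 3.34e-09). HLA-DRA was at 34.3, 29.5 and 34.7 CPM with GFP and at 68.9, 75.6 and 78.8 CPM with MAFG (1.18). Every MAFG library was above every GFP library for both genes, while HLA-DRB1 and HLA-DRB5 share near-identical sequence, so that their reads are hard to divide. HLA-DPA1 (0.47) and HLA-DPB1 (0.78) rose below the limit. HLA-DMA, which helps to load peptides, fell (-0.30), and HLA-DMB (-0.24) and HLA-DQB1 (0.07) did not pass the test, these 3 named after their values were seen. The summed level of the leukocyte marker list, which is mostly CD68, was 299 to 377 CPM with GFP and 217 to 222 CPM with MAFG, and PTPRC, CD4 and CD3E were at 0.

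Of 17 genes of MHC class I and antigen processing, none was called and 6 rose and 1 fell without the fold limit (median 0.17). Of 31 interferon response genes, MX1 (-2.05) was the only call, 3 rose and 3 fell without the fold limit, and its call was lost without GFP library 2 or MAFG library 2 or 3. Of 22 cytokines, chemokines and their interleukin receptors, 7 were called higher and 1 lower, with a median of 0.49. IL1B rose from a mean of 2.52 to 5.99 CPM (log2 fold change 1.25) and CCL18 from 0.994 to 2.65 CPM (1.40), and these 2 calls and that of the receptor IL4R, whose GFP libraries had 0 counts and which was at least 4.06-fold higher, held in each fit without 1 library. The calls of CCL20 (lost without GFP library 1 or MAFG library 3), IL24 (GFP library 2) and CCL3, the 1 lower gene (GFP library 3), did not. IL11 was lost without any GFP library or MAFG library 1, and IL7R without GFP library 1 or 3 or any MAFG library. Of 21 NF-kappaB pathway genes, CCL20 was the only call, with 5 higher and 7 lower without the fold limit.

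Mitosis genes rose by a small amount. Of 40 mitosis and spindle genes tested, 28 rose and 1 fell without the fold limit, none was called, and the median log2 fold change was 0.32. CDK1, the kinase that starts mitosis, rose from a mean of 45.8 to 63.2 CPM (0.46, edgeR adjusted p = 2.04e-04), its cyclin CCNB1 from 113 to 150 CPM (0.41) and the checkpoint kinase BUB1 from 130 to 165 CPM (0.35), while CCNB2 (0.11) and CDC20 (-0.09) did not pass the test. The 38 genes of DNA replication and E2F targets did not share this, with 5 higher, 5 lower and a median of 0.01. On the TPM scales this median was below 0, though not below the median of all genes. Of 29 inhibitors of cyclin-dependent kinases and p53 targets, 8 fell and 3 rose, and GADD45A, a growth arrest gene, was called lower, from 75.1, 74.4 and 80.5 CPM with GFP to 33.4, 34.7 and 33.2 CPM with MAFG (log2 fold change -1.18, edgeR adjusted p = 1.87e-09). Every MAFG library of GADD45A was below every GFP library. Of 28 apoptosis regulators, BCL2A1 (-1.27), a survival protein that MITF is known to drive, and BMF (-1.299) were called lower, 10 fell and 3 rose.

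Metabolic lists moved by small steps. Of 13 mitochondrially encoded genes, 11 rose and none fell without the fold limit, none was called, and the median was 0.41, which goes with the larger share of mitochondrial counts in the MAFG libraries given above. Of 78 nuclear-encoded respiratory chain subunits, 19 rose and 13 fell. Their median of 0.02 was below 0 on the TPM scales, though not below the median of all genes there. Of 25 cholesterol genes, 14 rose and 1 fell without the fold limit (median 0.30), among them HMGCS1 (0.71), an early enzyme of the pathway. EBP (1.11) was called higher. Of 28 genes of glycolysis and hypoxia response, 14 fell and 3 rose without the fold limit (median -0.20), among them the hexokinase HK2 (-0.31) and GPI (-0.47), and SLC16A3, a lactate carrier, was called lower (-1.20), though not without GFP library 1 or 2 or MAFG library 1 or 2.

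Of 25 genes of fatty acid and lipid synthesis, the fatty acid receptor CD36 was called lower, from a mean of 10.5 to 0.461 CPM (log2 fold change -4.50, edgeR adjusted p = 1.75e-09). Of 30 ATF4 and unfolded protein response genes, SLC7A11 and CHAC1 (-2.56), which breaks down glutathione, were called lower. Of 61 lysosome genes, 22 fell and 9 rose without the fold limit. The cathepsin CTSH was called lower, from a mean of 75.2 to 35.4 CPM (-1.09), and held without each library, while the call of CTSS (lower) was lost in each of those 6 fits and that of LAMP3 (higher) without GFP library 1 or 2 or MAFG library 3. Of 18 heat shock chaperones, HSPB8 (-1.24) was the only call.

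Of 208 solute carriers tested, 8 were called lower and 3 higher, and 40 fell and 26 rose without the fold limit, close to the shares of all genes. SLC6A17 fell from a mean of 11.98 to 1.32 CPM (log2 fold change -3.18) and SLC22A17, a receptor of lipocalin, from 3.40 to 0.347 CPM (-3.27), while SLC12A7, a cotransporter of potassium and chloride, rose from 0.322 to 2.65 CPM (3.01). Of 29 ABC transporters, ABCB5, a marker of therapy-resistant melanoma cells, was called lower, from a mean of 52.0 to 19.4 CPM (-1.42), and ABCA12 (1.45) and ABCB1 (2.02) higher, ABCB1 not without GFP library 2 or 3 or MAFG library 3. The mean TPM of ABCB1 went the other way, from 0.223 with GFP to 0.21 with MAFG. Of 30 potassium channels, 4 were called in each direction, with KCNN2 (-2.09) and KCNQ3 (-3.40) lower and KCNK2 (1.58) higher. Of 39 calcium, sodium and chloride channels, TRPV4 (1.68) was called higher and 3 were called lower, among them ANO4 (-1.42).

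Intracellular signalling and cytoskeleton lists held few calls. Of 41 cAMP signalling genes, CREB5 (1.47) and PDE1C (2.18) were called higher and AKAP6 (-1.44) lower. Of 18 tetraspanins, TSPAN5 (3.34) was called higher and TSPAN33 (-1.42) lower, and of 13 genes of caveolae and connexins, PANX2 (-2.36) lower and EHD2 (1.002) higher, the latter not without GFP library 3 or MAFG library 1. Of 25 actin and contractile genes, MYLK (-1.10) and ACTG2 (-2.38) were called lower and none higher.

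Transcription factor lists were mixed. Of 97 lineage factors of the SOX, PAX, FOX and similar families, 6 were called lower and 4 higher, and of these EGR2, POU3F1, RUNX1 (log2 fold change 1.37), DLX5 (2.55) and DLX6 (1.87) held in each fit without 1 library. RUNX1 rose from a mean of 11.3 to 29.2 CPM. Of 29 HOX genes, HOXA13 (-1.39) was the only call. Of 17 clock genes, RORB (1.85) was called higher and RORA (-1.44) lower, and of 12 retinoic acid genes, RXRG and CYP26B1 (2.33) higher, CYP26B1 not without GFP library 2 or 3 or MAFG library 2 or 3. Of 428 C2H2 zinc finger genes, 9 were called higher and 7 lower, 2.10% and 1.64%, and 54 rose and 53 fell without the fold limit. Of 60 replication-dependent histone genes, 1 was called lower, HIST2H3C, whose libraries overlap and which has near-identical copies. Of 12 cancer-testis antigens, MAGEC1 and MAGEA10 (-3.003) were called lower and none higher.

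Of 84 cytoplasmic ribosomal protein genes, 27 rose and 13 fell without the fold limit, and none was called. Their median of 0.09 was below 0 on the TPM scales, though not below the median of all genes there. No member was called among 15 AP-1 factors (4 rose, 5 fell), 19 ganglioside and sphingolipid genes (2 rose, 3 fell) and 4 cytidine deaminases (0 rose, 2 fell). Among the markers of other cell types, 2 keratinocyte, 2 fibroblast, 3 endothelial and 2 leukocyte genes had enough counts to be tested. Of these DSP, desmoplakin, was called lower, from a mean of 9.72 to 0.785 CPM (log2 fold change -3.63). The summed fibroblast list was 12.03 to 14.3 CPM with GFP and 19.5 to 22.3 CPM with MAFG, the keratinocyte list 30.8 to 36.9 and 28.5 to 29.2 CPM, and the endothelial list 0.861 to 2.29 and 1.69 to 2.59 CPM. The part of such genes in the results above was not tested.

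The response of SKMel28 cells was then set against that of the other lines in one model of all 18 libraries. Over 18767 tested genes, the response differed from that of WM164 cells for 2573 genes (13.7%) and from that of A375 cells for 1784 genes (9.51%) at an adjusted p of 0.05 or less in edgeR's quasi-likelihood test of the difference. Of the 30 genes with the smallest adjusted p and MAFG, 27 could be compared with WM164 and 23 with A375, the rest having at most 3 counts in each library of a condition. The response differed for 24 of 27 and for 18 of 23. The 30 genes were chosen for their size in SKMel28 cells, so that a smaller response elsewhere is partly fixed by that choice. The responses of LRP2, SLC7A8 and MAFG were not shown to differ from those in WM164 cells, nor those of BAAT, MGP, MMP2, SLC7A8 and MAFG from those in A375 cells. SLC7A8 had log2 fold changes of -1.39 in SKMel28 and -2.02 in WM164 cells, and LRP2 had 2.73 in SKMel28 and 2.62 in WM164 cells. In A375 cells SLC7A8 had at most 10 counts in a library, so that its log2 fold change of -1.18 there is uncertain. BAAT had at most 10 and MGP at most 17 counts in an A375 library. For these genes the comparison with A375 cells rests on few counts and cannot show a shared response.

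AXL had log2 fold changes of 5.25 in SKMel28, 3.13 in WM164 and -0.10 in A375 cells. Among the lower genes, A2M (1.005), CST1 (2.004), PTPRU (0.66) and CEMIP (0.23) had log2 fold changes above 0 in WM164 cells. In A375 cells, GPC6 (0.22), CEMIP (0.28) and MET (0.08) did. A2M had 0 counts in the A375 GFP libraries and a mean of 1.46 CPM in the A375 MAFG libraries, so that no fold change is given there. NQO1 had log2 fold changes of -1.48 in SKMel28, -0.44 in WM164 and -0.51 in A375 cells, and SLC7A11 -1.99, -0.62 and -0.27.

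**Figure D5:**
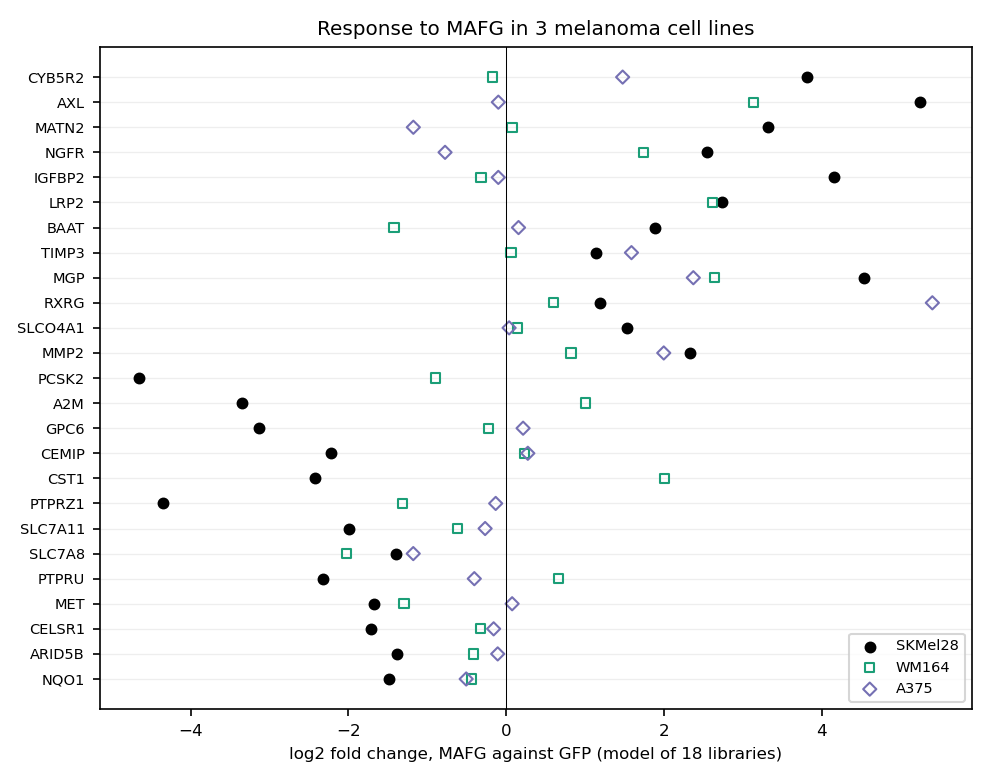
The log2 fold change of MAFG against GFP, from one model of 18 libraries with 3 libraries per condition and line, is shown for genes named by their smallest adjusted p in SKMel28 cells (filled circles), in WM164 (squares) and A375 cells (diamonds) where each condition had more than 3 counts in some library. AXL is at 5.25, 3.13 and -0.10, and A2M is at -3.35 in SKMel28 and at 1.005 in WM164 cells.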

How the data were processed

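Total RNA of 6 SKMel28 libraries was sequenced. The authors trimmed reads with cutadapt 1.8.1, mapped them to GRCh38 with STAR 2.7.7a and took gene counts from the uniquely mapped ones (featureCounts), and the deposited counts are whole numbers without normalization. The deposited TPM values sum to about the same total in each library. RSEM 1.3.0 and DESeq2 are also named in the submitters' processing notes. The annotation release and the strand setting are not given in the sources used here, and the sources differ on whether the kit kept strand.

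Of 58870 genes, 15523 passed filterByExpr and were tested with edgeR 4.0.16 (R 4.3.3, TMM normalization, quasi-likelihood test, Benjamini-Hochberg adjustment). A call needed an adjusted p no larger than 0.05 and a log2 fold change beyond 1. The floor was 3 counts per library. Differences between lines came from one edgeR model of 18 libraries. Coordinates and exon overlaps are from GENCODE 44. Named genes included the 15 called genes per direction with the smallest p. They were taken among genes whose libraries did not overlap between conditions and whose higher condition had a mean of at least 1 CPM. Also named were the 10 called genes per direction with the largest difference in CPM. Called members of the lists and the first members of each list by order were named as well. The members and lists were chosen with earlier results of these data known. Alternatives used DESeq2 1.42.0 and limma 3.58.1 (log2 of TPM plus a pseudocount of 1 or 0.1), and the script was tested on simulated data. Results for a few genes and 1 list are not reported here.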

Additional observations from a re-analysis of the deposited data

Results flagged for a closer look

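The response to MAFG in SKMel28 cells differed from that in another line for the genes below, in edgeR's quasi-likelihood test of the difference at an adjusted p of 0.05 or less. The values are differences of log2 fold changes, the response in SKMel28 cells minus the response in the other line. The genes were chosen for the strength of their change in SKMel28 cells.

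Of the genes that rose in SKMel28 cells, the difference from WM164 cells was CYB5R2 3.99, AXL 2.11, MATN2 3.25, NGFR 0.80, IGFBP2 4.47, BAAT 3.31, TIMP3 1.08, MGP 1.90, RXRG 0.59, SLCO4A1 1.39 and MMP2 1.51. From A375 cells it was CYB5R2 2.34, AXL 5.34, MATN2 4.50, NGFR 3.32, IGFBP2 4.25, TIMP3 -0.45, RXRG -4.21 and SLCO4A1 1.496. The signs of TIMP3 and RXRG against A375 cells were negative, so that the fold change was larger in A375 cells for these genes. RXRG had at most 6 counts in an A375 GFP library, so that the size of its fold change there is uncertain.

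Of the genes that fell in SKMel28 cells, the difference from WM164 cells was PCSK2 -3.75, A2M -4.36, GPC6 -2.91, CEMIP -2.45, CST1 -4.43, PTPRZ1 -3.04, SLC7A11 -1.38, PTPRU -2.98, MET -0.38, CELSR1 -1.39, ARID5B -0.96 and NQO1 -1.04. From A375 cells it was GPC6 -3.34, CEMIP -2.49, PTPRZ1 -4.22, SLC7A11 -1.73, PTPRU -1.91, MET -1.75, CELSR1 -1.55, ARID5B -1.27 and NQO1 -0.97. Each of these values was negative, so that the fall was larger in SKMel28 cells or the other line had a rise.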

How the results depend on the processing

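The 736 called genes (273 higher, 463 lower) numbered 718 under DESeq2, 763 in the model of 18 libraries and 878 without a count filter. With at least 10 counts in every library, 172 genes were higher. On the log2(TPM + 0.1) scale 411 genes were called (88 higher, 323 lower), on the log2(TPM + 1) scale 226 (44 higher, 182 lower), without a fold limit 4640 (2265 higher, 2375 lower), and in a test against the fold limit itself 221 (88 higher, 133 lower). The cause of the difference between counts and TPM was not tested. Leaving out 1 library gave 678 to 726 called genes, 253 to 285 higher and 393 to 462 lower. The lists with a median above 0 numbered 28, 14 on both TPM scales, and 26 to 31 without 1 library. Differences from WM164 numbered 1977 to 2167 and from A375 1331 to 1477 without 1 library. MLANA turned to -0.10 on both TPM scales and ran from -0.034 (without GFP library 2) to 0.096 without 1 library, and SOX10 to -0.14 on both TPM scales. The median of all genes was -0.14 on the log2(TPM + 1) scale and -0.17 on the log2(TPM + 0.1) scale. The replicate block gave 716 called genes (264 higher, 452 lower), of which 694 were shared, and 1957 and 1297 differences from WM164 and A375. Deviations of same-numbered libraries correlated at 0.03, -0.04 and -0.01, and those of differently numbered ones at -0.05 to 0.05. No pairing by number was seen, though these few values cannot exclude one. Of 231 named called genes, 164 remained called without each library in turn and 220 under DESeq2.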

Other observations

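The following 6 groups of genes were put together after their values were seen, so that their counts are a description. Among GABA-A receptor subunits, GABRA5 was called lower, from a mean of 7.61 to 1.34 CPM, and so was GABRG3, which was at least 13.4-fold lower. Of 11 genes of the presynaptic active zone, where vesicles are released, 8 fell without the fold limit and 4 were called lower, RIMS2 (log2 fold change -2.96), RIMS3 (-2.53), BSN (-1.09) and PPFIA4 (-1.08), the last 2 of which were lost without GFP library 2. Of 9 prohormone convertases and their helpers, 4 were called lower, among them PCSK2, PCSK6 (-5.31) and PCSK1N (-1.83), and 6 fell without the fold limit. PCSK6 shares exon sequence with SNRPA1 on the same strand and with SNRPA1-DT on the opposite strand.

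Of 10 genes of prostaglandin synthesis, breakdown and reception, the synthesis enzymes PTGS1 (log2 fold change 2.52) and PTGES (2.09) were called higher, and HPGD (-1.80), which breaks prostaglandins down, and the receptor PTGER4, at least 6.43-fold lower, were called lower. Of 7 aryl hydrocarbon receptor genes, AHR, AHRR and CYP1A1 were called higher, and AHRR and CYP1A1 each lost the call in some fits without 1 library. Of 14 genes of desmosomes and epithelial polarity, DSP, LSR (-1.26), CGNL1 (-1.76) and LLGL2 were called lower, the last not in 5 of 6 fits without 1 library. Without the fold limit 5 of this group fell and 3 rose, and its median log2 fold change was above 0, at 0.16.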
